A study of Homo sapiens with 4 samples.

Results

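The 10 genes of plasma membrane amino acid transport, SLC3A2, SLC7A5, SLC7A8, SLC7A7, SLC7A11, SLC7A1, SLC7A3, SLC38A1, SLC38A2 and SLC1A5, were compared between the naïve and the primed state of human embryonic stem cells (hESCs). They were chosen by symbol, all 10 were found among 62218 annotated genes, and 116 annotated transcripts belong to them. Each gene took the count of the transcript whose mean count was largest, and all 10 passed the filter of at least 10 counts in at least 2 libraries, as did 27633 genes in all. Complementary DNA from total RNA was sequenced as 4 Nanopore libraries, 2 per state, all from wild-type cells of the single line H1. Primed hESCs were grown in mTeSR1 on Matrigel in normal oxygen. Naïve hESCs were derived from them on reduced growth factor Matrigel in low oxygen, in a medium the labels call FINE. It held added L-glutamine, non-essential amino acids, B-mercaptoethanol and BSA, with dasatinib, AZD5438, SB590885, PD0325901, Y-27632, LIF, Activin A and bFGF. State, medium, matrix grade and oxygen changed together and cannot be told apart, and the labels name no batch. The labels do not say that the replicates were separate cultures, so p-values measure only the spread between these libraries.

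Amino acids enter and leave cells through carriers that differ in their substrates and in what drives them. SLC3A2, the heavy chain of the 4F2 antigen, carries no amino acid itself but brings light chains of the SLC7 family to the membrane, where the pairs work as exchangers. SLC7A1 and SLC7A3 work without a heavy chain, and the SLC38 carriers use the sodium gradient to bring in glutamine and other small neutral amino acids. Pluripotent stem cells are known for a high use of glutamine and methionine.

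The totals ran from 129276054 to 161548901 counts per library. A count is the number of alignments over the whole span of a transcript, introns included and strand ignored, and 1 alignment can add to several transcripts and, where a read aligned at several places, to several genes. Levels are given as CPM, that is counts scaled to a common library size, here after TMM normalization. The state labels were checked on marker genes. All 8 primed markers were higher in primed hESCs, and all 8 naïve markers were lower, but KLF17, with 2200 and 2423 naïve and 2083 and 2236 primed counts, had a log2 fold change of -0.41 with TMM normalization and 0.23 with library size alone. Markers of trophoblast, a cell type that a naïve culture could hold, also moved with the state. Of 12, 11 were tested and 10 were lower in primed hESCs (11 tested, 10 lower and KRT7 higher with library size alone). Their summed level was 1737 and 2089 CPM in the naïve libraries and 6.72 and 6.29 CPM in the primed libraries, mostly from CGA, the alpha subunit of the glycoprotein hormones, with 35747 and 47550 naïve counts against 0 and 1. CDX2 had at most 4 counts in any library. The part of such cells in the values below was not tested, and in bulk RNA a change in the number of cells of a type cannot be told apart from a change in RNA per cell.

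Start regions from RefSeq (GRCh38.p14) are shown for SLC3A2, SLC7A5 and SLC38A2, in which the share of alignments near the start differed between the states (values below), and for SLC7A1, the member with the largest rise among those with an entry. For SLC3A2, 2 are shown, an upstream and a downstream start, and a further downstream start at 62881699 is not shown. The sequences leave out annotated exons of the gene, are on the strand of the gene, end at or before the start, and hold in capitals any match to CACGTG, the E-box that MYC family factors can bind, or to TGACNNNGC, a form of the antioxidant response element that NFE2L2 can bind.
SLC3A2, upstream start, chr11:62855859-62856003: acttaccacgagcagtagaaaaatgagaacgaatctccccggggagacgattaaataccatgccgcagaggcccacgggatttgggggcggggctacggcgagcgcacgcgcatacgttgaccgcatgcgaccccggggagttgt
SLC3A2, downstream start, chr11:62880646-62880862: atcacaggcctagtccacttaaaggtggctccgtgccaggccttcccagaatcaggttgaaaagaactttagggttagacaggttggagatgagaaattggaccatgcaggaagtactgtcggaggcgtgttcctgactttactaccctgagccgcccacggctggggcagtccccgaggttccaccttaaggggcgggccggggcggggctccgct
SLC7A5, chr16:87869508-87869757: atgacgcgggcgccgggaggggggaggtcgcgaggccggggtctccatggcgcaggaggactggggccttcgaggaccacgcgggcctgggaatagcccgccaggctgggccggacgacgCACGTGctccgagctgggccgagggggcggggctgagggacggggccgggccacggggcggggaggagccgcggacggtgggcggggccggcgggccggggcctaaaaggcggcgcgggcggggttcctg
SLC7A1, chr13:29595689-29595938: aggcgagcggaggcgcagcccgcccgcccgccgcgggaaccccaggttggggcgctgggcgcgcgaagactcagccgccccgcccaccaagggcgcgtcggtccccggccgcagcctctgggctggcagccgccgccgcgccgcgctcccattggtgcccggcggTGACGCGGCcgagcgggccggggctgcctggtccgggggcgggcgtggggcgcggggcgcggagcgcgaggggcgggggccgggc
SLC38A2, chr12:46372774-46373023: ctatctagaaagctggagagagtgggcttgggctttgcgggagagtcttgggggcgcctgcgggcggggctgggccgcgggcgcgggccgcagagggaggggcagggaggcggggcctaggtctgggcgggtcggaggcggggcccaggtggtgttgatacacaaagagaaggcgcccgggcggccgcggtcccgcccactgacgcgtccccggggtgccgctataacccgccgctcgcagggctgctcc
The SLC7A5 region held CACGTG starting 130 bases before the start, and the SLC7A1 region held TGACNNNGC 85 bases before it. The SLC3A2 region not shown, chr11:62881454-62881697, held TGACNNNGC 37 bases before its start. The first SLC3A2 region overlaps SNHG1 and that of SLC38A2 overlaps SLC38A2-AS1, both on the opposite strand. In windows of 250 bases before to 50 after each RefSeq start, both strands searched, CACGTG was in 4 of 18 starts of 8 members and in 7.26% of all 35116 starts. The word TGACNNNGC was in 5 of the 18 and 13.3% of all, and TGATGCAA, a word that ATF4 can bind, in 1 of the 18, a start of SLC1A5, and 0.866% of all. SLC7A3 and SLC7A11 had no entry. A match is only a run of letters, and nothing was measured at these words.

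Of the 10 transporters, 9 differed between the states, 5 lower and 4 higher in primed hESCs, by edgeR's quasi-likelihood test (Benjamini-Hochberg adjusted p under 0.05 over all genes tested). Of all genes tested, 70% were called, 37.4% higher and 32.6% lower, so a call was the usual outcome in these libraries. A log2 fold change beyond 1 as well was found in 6 of the 10 and in 47.1% of all genes. The heavy chain SLC3A2 and the 4 light chains among the members, SLC7A5, SLC7A8, SLC7A7 and SLC7A11, were the 5 lower genes. The cationic carriers SLC7A1 and SLC7A3 and the glutamine carriers SLC38A1 and SLC38A2 were the 4 higher ones, and SLC1A5 was not called. Log2 fold changes are primed over naïve. With library size alone in place of TMM, the median over all tested genes went from 0.08 to 0.72 (log2 fold change) and the calls from 10326 higher and 9008 lower to 15525 and 4512.

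**Figure D1:**
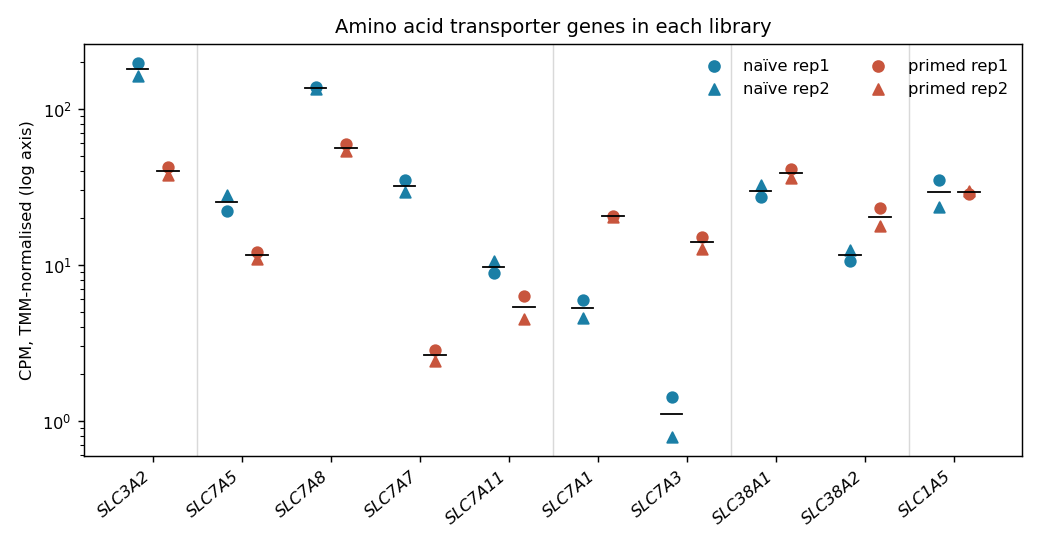
Level of each transporter gene in each library, in CPM normalized by TMM on a log axis, with naïve libraries in blue, primed libraries in red, circles for rep1, triangles for rep2 and a bar at the mean of a state. The naïve and primed points are apart for every gene but SLC1A5, whose naïve values of 35.0 and 23.5 CPM lie on both sides of the primed ones.

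SLC3A2 (ENSG00000168003, chr11:62856004-62888880, plus strand), the heavy chain, had 4560 and 4131 naïve and 1249 and 1149 primed counts. Both naïve libraries lay far above both primed ones. The level went from 180 ± 25.3 CPM (SD, n = 2) to 39.9 ± 3.50 CPM (SD, n = 2), 4.50-fold lower in primed hESCs, with a log2 fold change of -2.17 ± 0.15 (SE) and an adjusted p of 1.23e-16 (edgeR's quasi-likelihood test). Of its 40 transcripts, 8 had exactly the same counts, though their spans are not all the same, so the level cannot be given to one isoform.

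SLC7A7 (ENSG00000155465, chr14:22773222-22829820, minus strand), a light chain that exports arginine and lysine in exchange for neutral amino acids, fell most of the 10. Its counts were 809 and 750 in naïve and 84 and 74 in primed libraries, or 32.2 ± 4.01 CPM against 2.63 ± 0.311 CPM (SD, n = 2 each). That was 12.2-fold lower in primed hESCs, a log2 fold change of -3.61 ± 0.19 (SE, adjusted p = 2.98e-21, edgeR's quasi-likelihood test). The states did not overlap, and the spread within a state was small beside the gap.

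SLC7A8 (ENSG00000092068, chr14:23125295-23183674, minus strand), a light chain for neutral amino acids large and small, had 3166 and 3429 naïve and 1751 and 1635 primed counts. The level fell 2.41-fold, from 136 ± 2.01 to 56.4 ± 4.35 CPM (SD, n = 2 each, log2 fold change -1.27 ± 0.14 SE, adjusted p = 2.48e-10, edgeR's quasi-likelihood test). The transcript of ENSG00000288931, on the same strand at the 3′ end of its span, had 1130 and 1190 naïve and 586 and 492 primed counts, and alignments of the pair cannot be told apart there. SLC7A5 (ENSG00000103257, chr16:87830023-87869507, minus strand), the light chain that brings in leucine and other large neutral amino acids, had 511 and 718 naïve and 355 and 334 primed counts. The naïve libraries differed from each other more than the primed ones did, but both were above both primed libraries. The level went from 25.1 ± 4.23 to 11.5 ± 0.825 CPM (SD, n = 2 each), a log2 fold change of -1.13 ± 0.16 (SE, adjusted p = 5.65e-08, edgeR's quasi-likelihood test). Its pseudogenes SLC7A5P1 and SLC7A5P2, which can take alignments of the same reads, had between 81 and 118 counts in every library. ENSG00000260466, on the opposite strand inside the SLC7A5 span, had 84 and 136 naïve and 123 and 76 primed counts, which unstranded counting cannot separate from those of SLC7A5.

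SLC7A11 (ENSG00000151012, chr4:138164097-138242349, minus strand), the light chain that takes up cystine in exchange for glutamate, had 204 and 270 naïve and 185 and 137 primed counts. The lower naïve library and the higher primed library lay close in raw counts and were apart in CPM, at 8.84 and 6.28. The level went from 9.71 ± 1.23 to 5.37 ± 1.28 CPM (SD, n = 2 each), a log2 fold change of -0.86 ± 0.19 (SE, adjusted p = 1.43e-04, edgeR's quasi-likelihood test). This call rested on the scaling and on one library. With library size alone the log2 fold change was -0.22 (adjusted p = 0.336, edgeR's quasi-likelihood test), and without primed rep2 it was -0.46 (adjusted p = 0.0850, edgeR's quasi-likelihood test), the lone primed library then being assumed to vary like the others. SLC7A11-AS1, on the opposite strand across its 3′ part, had 118 and 135 naïve and 108 and 79 primed counts, which unstranded counting cannot separate from it.

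SLC7A1 (ENSG00000139514, chr13:29509414-29595688, minus strand), the widely expressed uptake carrier for arginine, lysine and ornithine, had 137 and 117 naïve and 609 and 625 primed counts. Each primed library held over 4 times the counts of either naïve library. The level rose 3.90-fold, from 5.26 ± 0.956 to 20.5 ± 0.216 CPM (SD, n = 2 each, log2 fold change 1.97 ± 0.18 SE, adjusted p = 2.99e-13, edgeR's quasi-likelihood test). SLC7A3 (ENSG00000165349, chrX:70925579-70931125, minus strand), a cationic carrier of narrower expression, had only 33 and 20 naïve counts and 447 and 390 primed counts. It rose most of the 10, 12.6-fold, from 1.11 ± 0.457 to 13.9 ± 1.74 CPM (SD, n = 2 each, log2 fold change 3.67 ± 0.24 SE, adjusted p = 1.15e-17, edgeR's quasi-likelihood test). The naïve level rests on few counts, and the states were still far apart in every pair of libraries.

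SLC38A2 (ENSG00000134294, chr12:46358188-46372773, minus strand), a sodium-coupled carrier of glutamine and alanine that cells are known to raise when amino acids run short, had 245 and 319 naïve and 679 and 542 primed counts. The level went from 11.6 ± 1.33 to 20.4 ± 3.81 CPM (SD, n = 2 each), a log2 fold change of 0.81 ± 0.17 (SE, adjusted p = 3.55e-05, edgeR's quasi-likelihood test). Both primed libraries were above both naïve ones. SLC38A1 (ENSG00000111371, chr12:46183063-46270017, minus strand), a related carrier of glutamine, had 628 and 824 naïve and 1213 and 1099 primed counts. The level went from 29.7 ± 3.58 to 38.5 ± 3.79 CPM (SD, n = 2 each), a log2 fold change of 0.37 ± 0.15 (SE) with an adjusted p of 0.0268 (edgeR's quasi-likelihood test). The gap between the nearest libraries, 32.3 CPM in naïve rep2 and 35.8 CPM in primed rep2, was narrow, and the call was lost without naïve rep1 (log2 fold change 0.19, adjusted p = 0.373, edgeR's quasi-likelihood test).

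SLC1A5 (ENSG00000105281, chr19:46774883-46788594, minus strand), the sodium-dependent exchanger of glutamine and other neutral amino acids, had 808 and 600 naïve and 841 and 913 primed counts. The naïve libraries lay on both sides of the primed ones in CPM, at 29.2 ± 8.13 against 29.1 ± 0.851 (SD, n = 2 each). The log2 fold change was -0.0033 ± 0.16 (SE, adjusted p = 0.987, edgeR's quasi-likelihood test), and with library size alone it was 0.64, a call for higher in primed hESCs (adjusted p = 0.00126, edgeR's quasi-likelihood test). The transcript of ENSG00000275719, across its start, had 191 and 201 naïve and 286 and 226 primed counts, and unstranded counting cannot separate alignments of the pair there.

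**Figure D2:**
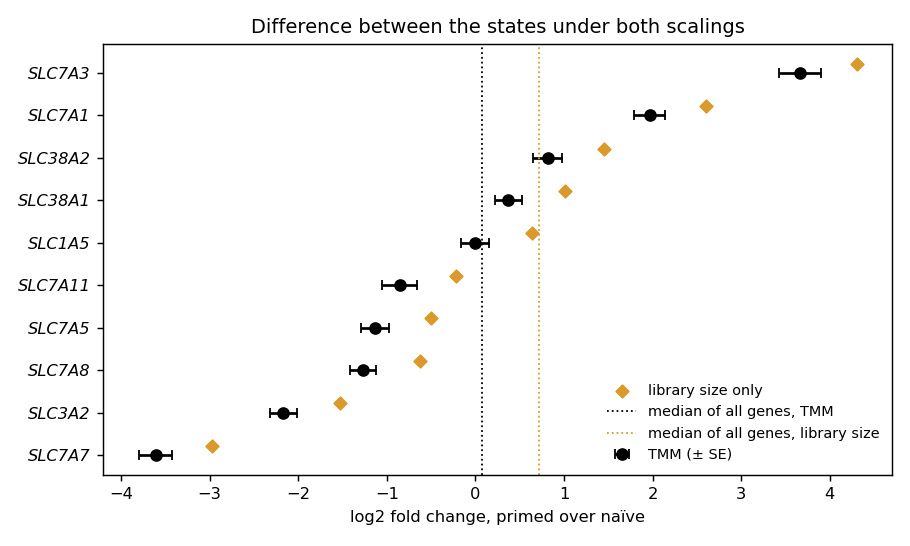
Log2 fold change of each transporter gene, primed over naïve, with TMM normalization (black, bars are the standard error) and with library size alone (orange), beside the median of all genes tested under each scaling (dotted lines, 0.08 and 0.72). SLC7A7, SLC3A2, SLC7A8 and SLC7A5 lie left of 0 and SLC7A1, SLC7A3, SLC38A1 and SLC38A2 right of 0 under both scalings, while SLC1A5 moves from -0.0033 to 0.64 and SLC7A11 from -0.86 to -0.22.

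Levels can be set beside each other between genes only per length, as CPM per kilobase of exonic length of the transcript taken, and even so they depend on that transcript. In naïve hESCs SLC3A2 had the highest level, 79.3 ± 11.2 CPM per kilobase (SD, n = 2), followed by SLC7A8 at 32.0 ± 0.474, SLC7A7 at 14.2 ± 1.76 and SLC1A5 at 10.1 ± 2.82. SLC7A5, SLC38A1, SLC38A2 and SLC7A11 came next, and SLC7A1 and SLC7A3 were last, at 0.716 ± 0.130 and 0.494 ± 0.204. In the naïve order the libraries of neighbours overlapped only for SLC7A1 and SLC7A3. In primed hESCs SLC3A2 and SLC7A8 were again first, at 17.6 ± 1.55 and 13.3 ± 1.03 CPM per kilobase, then SLC1A5 at 10.1 ± 0.295. SLC7A3 was now at rank 4 of 10, at 6.23 ± 0.778, and SLC7A7, at rank 3 in naïve hESCs, was at rank 9, at 1.16 ± 0.137. There the libraries of neighbours overlapped only for SLC38A1 and SLC38A2.

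The heavy chain and the 4 light chains among the members differed to unequal degrees. On the scale of CPM per kilobase, SLC3A2 was 1.63 and 1.38 times the sum of SLC7A5, SLC7A7, SLC7A8 and SLC7A11 in the naïve libraries and 1.01 and 1.00 times in the primed libraries. The ratio is taken within a library, so the scaling between libraries does not enter it, and its naïve values were both above its primed values. The sum leaves out light chains that are not members, so neither the ratio nor the shares below cover all partners of SLC3A2. SLC7A6, one of these, named after its values were seen, had 16.2 CPM in naïve and 9.71 CPM in primed hESCs, not scaled by length. SLC7A8 made up most of the sum of these 4 in every library, at 60.4% and 61.1% in naïve and 75.5% and 76.3% in primed libraries. The share of SLC7A7 was 28.8% and 24.9% in naïve and 6.75% and 6.44% in primed libraries. SLC7A5 took 9.07% and 11.9% in naïve and 14.2% and 14.5% in primed libraries, so its share was higher in primed hESCs although its own level was lower. With 2 libraries a state, no test of these ratios could pass a threshold of 0.05 by permutation, and none was made.

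**Figure D3:**
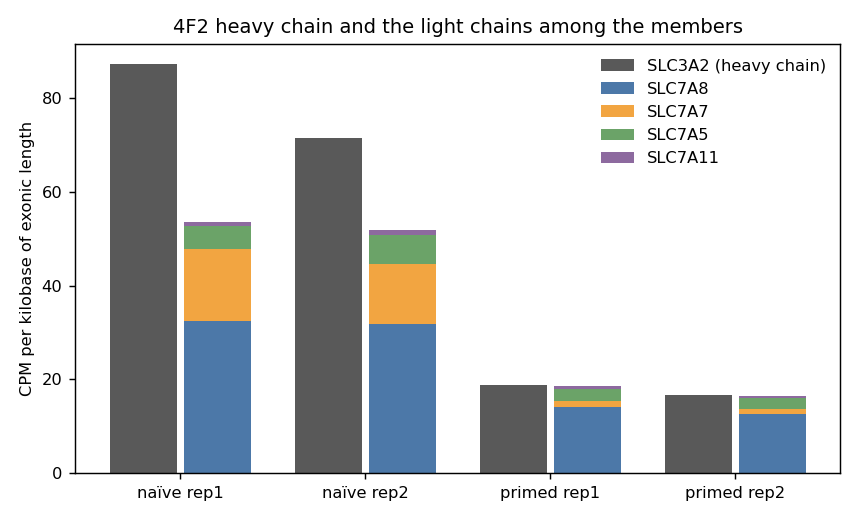
Level per kilobase of exonic length (CPM per kilobase, TMM-normalized) of the heavy chain SLC3A2 (gray) and of the 4 light chains among the members stacked beside it, in each library. Other light chains are not in the stack. The gray bar stands above the stack in both naïve libraries, at 87.2 against 53.6 and 71.4 against 51.9, and level with it in both primed libraries, at 18.7 against 18.6 and 16.5 against 16.5.

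No isoform of these genes was called for differential isoform usage. All 116 were tested, and 0 had an adjusted p under 0.05 (edgeR's diffSpliceDGE, Benjamini-Hochberg adjustment over all isoforms tested), while 3 had an unadjusted p under 0.05. Of all isoforms tested, 0.556% were called and 9.72% had an unadjusted p under 0.05. The smallest adjusted p was 0.202 (edgeR's quasi-likelihood fit) for SLC38A2-213, an isoform with a retained intron, whose fraction of its gene's length-scaled counts was 15.8% and 13.6% in naïve and 7.41% and 7.92% in primed libraries. The largest change of an isoform fraction between the states was 0.0858, for SLC7A5-202. The span of this isoform overlaps ENSG00000260466 on the opposite strand, and unstranded counting cannot separate alignments of the pair there. Transcripts of a gene share most of their alignments in these counts, which limits what such a test can see.

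Counts over nested spans show where on a gene the alignments lay. The count over the transcript taken for a gene, minus that over a transcript whose span lies inside it, is the number of alignments that miss the inner span. In 9 members 67 such pairs of spans could be made, and the shares of missing alignments did not overlap between the states in 46 (68.7%), 30 of them higher in primed and 16 higher in naïve hESCs. Over all genes 62.9% of pairs did not overlap, so the count of the members is near the background. In 23 of the 67 (34.3%) the states were more than 10 points apart, against 17.3% over all genes. Most of these 23 were pairs of SLC38A2 and SLC3A2, whose pairs count much the same alignments. Pairs of a gene share alignments and are not independent, and the pairs described next were chosen after their values were seen, so they are given as a description with no test. Intervals are 95% Wilson intervals for counting error alone, as no molecular identifiers were used.

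In SLC38A1 the 15665 bases at the 3′ end of the span, from 46183063 to 46198727, lie outside the span of isoform SLC38A1-207 of this gene. Alignments that missed this inner span numbered 79 and 132 in naïve and 464 and 412 in primed libraries. That was 12.6% (10.2% to 15.4%) and 16.0% (13.7% to 18.7%) of the SLC38A1 count in naïve hESCs, and 38.3% (35.6% to 41.0%) and 37.5% (34.7% to 40.4%) in primed hESCs. The rest of the span went from 25.4 ± 2.35 to 23.9 ± 2.15 CPM (SD, n = 2 each). With that inner count in place of the gene's, the log2 fold change of SLC38A1 was -0.091, against 0.37 for the whole span.

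In SLC3A2 the 23887 bases from the upstream start to 62879890 lie outside SLC3A2-230, whose span holds the downstream start shown above. Alignments that missed this inner span numbered 86 and 78 in naïve and 172 and 212 in primed libraries, so they were more in primed hESCs while the gene fell. Their share was 1.89% (1.53% to 2.32%) and 1.89% (1.52% to 2.35%) in naïve and 13.8% (11.97% to 15.8%) and 18.5% (16.3% to 20.8%) in primed libraries. For the inner span alone the log2 fold change was -2.39. In SLC7A5 the 5868 bases at the 5′ end, from 87863640 to 87869507, next to the start region shown above, went the same way as the gene. Alignments that touched only this stretch numbered 68 and 91 in naïve and 21 and 18 in primed libraries, 13.3% and 12.7% against 5.92% and 5.39% of the count.

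In SLC38A2 both ends, 2923 bases at the 3′ and 1984 bases at the 5′ side, lie outside SLC38A2-214. In naïve hESCs most alignments missed it, 145 and 171 or 59.2% (52.9% to 65.2%) and 53.6% (48.1% to 59.0%). In primed hESCs 127 and 152 did, or 18.7% (16.0% to 21.8%) and 28.0% (24.4% to 32.0%). The body of the gene had 100 and 148 naïve and 552 and 390 primed counts, and its log2 fold change was 1.63, against 0.81 for the whole span. The span of SLC38A2-213 covers the 5′ end alone, from 46370799 to 46372773. The share of alignments that missed it, and so lay only on its 3′ side, was 10.6% (7.35% to 15.1%) and 9.09% (6.40% to 12.8%) in naïve libraries. In primed libraries that share was 15.6% (13.1% to 18.5%) and 17.9% (14.9% to 21.3%). These alignments numbered only 26 and 29 in naïve libraries, so most that missed SLC38A2-214 there touched the 5′ end. SLC38A2-AS1, on the opposite strand over the 5′ end, had 213 and 283 naïve and 558 and 436 primed counts. The span of SLC38A2-213 had 219 and 290 naïve and 573 and 445 primed counts. Unstranded counting cannot separate the alignments of this pair there, and the part of SLC38A2-AS1 in these values was not tested. In SLC7A11 the alignments that missed SLC7A11-202 made up 30.4% and 38.1% in naïve and 54.1% and 51.1% in primed libraries. They numbered 62 and 103 in naïve and 100 and 70 in primed libraries, or 3.36 ± 0.953 and 2.84 ± 0.787 CPM (SD, n = 2 each). The inner span went from 6.35 ± 0.276 to 2.53 ± 0.496 CPM (SD, n = 2 each). The 3′ stretch outside it lies within SLC7A11-AS1, whose alignments unstranded counting cannot separate. SLC7A8 was without such a difference in shares, with 17.2% and 18.1% against 14.0% and 17.4% of alignments missing SLC7A8-202, whose span leaves out 28351 bases at the 5′ end.

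**Figure D4:**
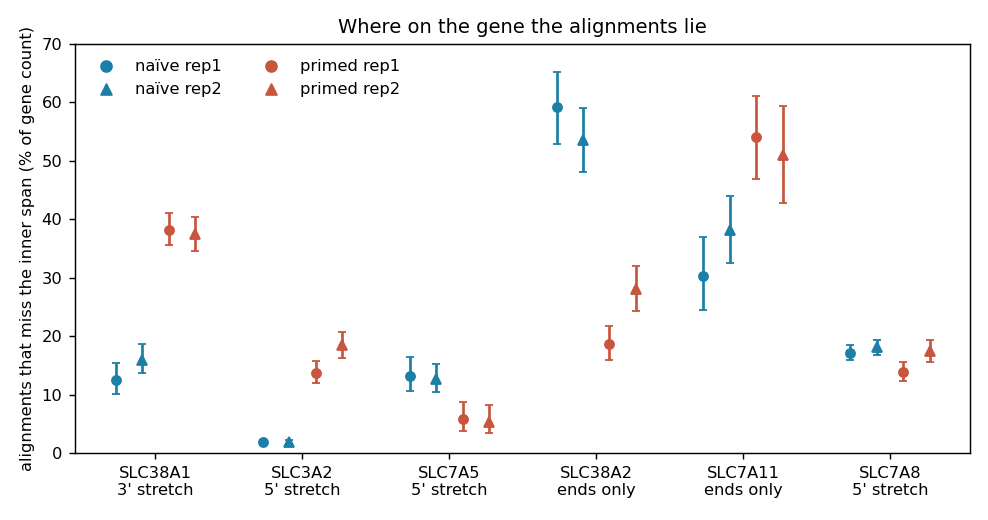
Share of a gene's alignments, in percent of its count, that miss an inner span, for 6 pairs of spans in each library, with 95% Wilson intervals for counting error and naïve libraries in blue, primed in red. Shares are higher in primed libraries for SLC38A1, SLC3A2 and SLC7A11, higher in naïve libraries for SLC7A5 and SLC38A2, and overlapping for SLC7A8.

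Among the other amino acid transporters, genes were called in both directions. Of 42 listed, 32 were tested, and 13 were higher, 10 lower and 9 not called, a share called of 71.9% against 70% of all genes (20 higher and 7 lower with library size alone), with a median log2 fold change of 0.43 against 0.08 for all genes tested. The most abundant called genes in each direction were SLC36A4 and SLC6A9, a carrier of proline and tryptophan and a glycine transporter, and, among the lower ones, SLC38A9 and SLC7A2. SLC36A4 had 35 and 57 naïve and 273 and 297 primed counts. SLC7A2, a cationic carrier like SLC7A1 and SLC7A3, went the other way, with 452 and 676 naïve and 147 and 147 primed counts and a log2 fold change of -2.24 ± 0.18 (SE, adjusted p = 7.88e-15, edgeR's quasi-likelihood test). SLC38A9, the lysosomal arginine sensor of mTORC1, had a log2 fold change of -0.83, and -0.19 with library size alone.

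The amino acid response is driven by ATF4 when amino acids are short or the endoplasmic reticulum is stressed. All 32 listed genes were tested, and 21 were lower, 6 higher and 5 not called, with a median log2 fold change of -0.79 (14 lower and 11 higher with library size alone). That is 84.4% called, against 70% of all genes tested, of which 32.6% were lower and 37.4% higher. PHGDH and PSAT1, enzymes of serine synthesis, were higher, PHGDH with 1350 and 1183 naïve and 3835 and 3239 primed counts. NUPR1, a stress-induced nuclear protein, had 4257 and 4365 naïve and 6 and 8 primed counts, and SARS1, the seryl-tRNA synthetase, 3023 and 3219 against 1082 and 1005. ATF4 itself, named here after its values were seen, had 1905 and 1954 naïve and 1656 and 1479 primed counts, a log2 fold change of -0.61 with TMM and 0.032 with library size alone.

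Of 31 genes through which amino acids act on the growth kinase mTORC1, 15 were lower, 5 higher and 11 not called, with a median log2 fold change of -0.39, and with library size alone the split turned to 4 lower and 11 higher. The share called, 64.5%, was below the 70% of all genes. LAMTOR5, a subunit of the Ragulator complex on lysosomes, had 3455 and 3184 naïve and 1159 and 1321 primed counts and was lower under both scalings (log2 fold change -1.74 and -1.09). RRAGA, a Rag GTPase, had 132 and 123 naïve and 358 and 289 primed counts and was higher under both (1.03 and 1.67). DEPDC5 was also higher under both (0.41 and 1.05), while LAMTOR4 was lower with TMM (-0.82) and not called with library size alone (-0.18). Of 13 genes of glutathione and cystine use, which SLC7A11 feeds, 5 were lower, 3 higher and 5 not called (4 lower and 6 higher with library size alone), and their share called, 61.5%, was also below it. CBS, an enzyme of cysteine synthesis from homocysteine, had 376 and 357 naïve and 1432 and 1415 primed counts, while GPX4, the glutathione peroxidase of membrane lipids, had 5734 and 5392 against 3504 and 3259. KEAP1 was higher (log2 fold change 0.95). TXNRD1 had a log2 fold change of -0.65 with TMM and -0.0067 with library size alone.

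**Figure D5:**
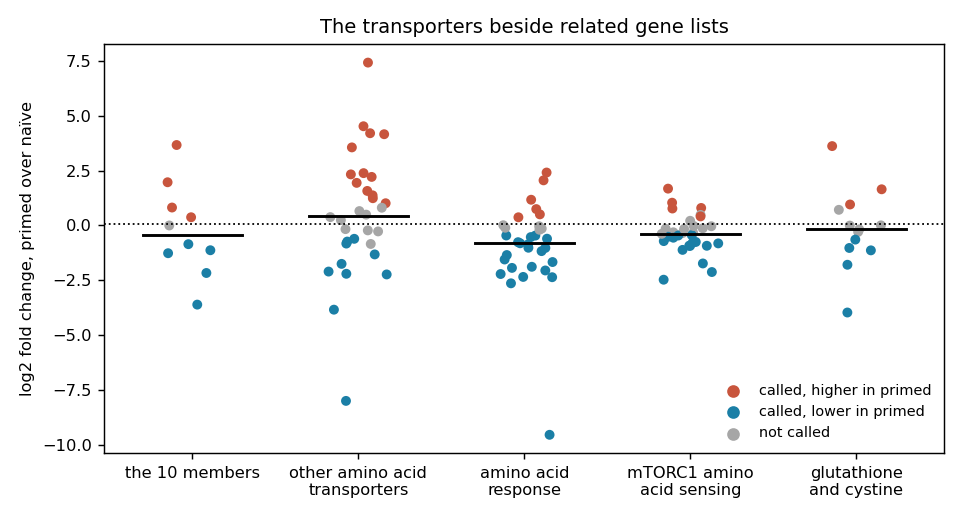
Log2 fold change, primed over naïve with TMM normalization, of the 10 transporters and of the tested genes of 4 related lists, each point a gene, red for called and higher in primed, blue for called and lower in primed, gray for not called. Bars are list medians, -0.43 for the 10 members and -0.79 for the amino acid response, and the dotted line is the median of all genes tested, 0.08. With library size alone most called genes of mTORC1 amino acid sensing are higher in primed (11 against 4).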

How the data were processed

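Complementary DNA of H1 naïve and primed hESCs was sequenced on a Nanopore instrument, 2 libraries per state, grouped by the culture condition in the labels. The authors aligned the reads to GRCh38 with minimap2 and deposited, per library, the raw counts of alignments that featureCounts 2.0.0 assigned to 244825 transcripts (Ensembl 105), with no normalization. Per the file headers, alignments at several places and over several transcripts were all counted, which adds counts to genes with overlapping neighbours or pseudogenes and makes the isoforms of a gene share alignments.

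Transcripts were matched to GENCODE release 44 by identifier. Of them, 242542 matched, 97.9% of these at the same position, and the 2283 others, with 1.0% of counts, were left out. The gene value was the count of the transcript with the largest mean count, a protein-coding one where counts were tied. Genes and isoforms that reached 10 counts in 2 or more libraries were tested over the whole table with edgeR 4.0.16 in R 4.3.3 (TMM, quasi-likelihood fit, two-sided, Benjamini-Hochberg, standard errors from the log2 fold change and its F statistic), and isoforms with diffSpliceDGE, called at an adjusted p under 0.05 and a change of isoform fraction (dIF) beyond 0.1. DESeq2 1.42.0, other scalings, filters and gene values, the replicate number as a block and each library left out were alternatives. The fits were checked on simulated counts, in which far fewer genes changed than were called here and isoforms shared no alignments. That check therefore does not cover these traits of the data. Replicates of a state differed beyond sampling noise (chi-square per degree of freedom 15.2 and 8.89). Tables were handled with pandas 2.3.3 and intervals with scipy 1.17.1.

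The 10 members and the gene lists were chosen with earlier results of these data known. Genes named from a list are the called ones with the largest mean CPM, at most 2 in each direction. The exceptions are SLC7A6, ATF4 and the marker genes KLF17, CGA, KRT7 and CDX2. One overlap between annotated genes is not reported here.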

Additional observations from a re-analysis of the deposited data

How the results depend on the processing

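The 10 log2 fold changes were recomputed under 14 alternatives. SLC3A2, SLC7A1, SLC7A3, SLC7A5, SLC7A7 and SLC7A8 kept their direction and their call under all 14. Library size in place of TMM turned SLC1A5 to 0.64, and the inner span, chosen after seeing the data, turned SLC38A1 to -0.091. SLC38A1 also lost its call with RLE factors (adjusted p = 0.0545, edgeR's quasi-likelihood test), DESeq2 (adjusted p = 0.0830), no count filter (adjusted p = 0.0534, edgeR's quasi-likelihood test) and counts summed over transcripts (adjusted p = 0.462, edgeR's quasi-likelihood test). The causes were not tested. Between 8 and 9 members were called when a library was left out. A log2 fold change threshold of 1 left 6 members, 17 called genes of the amino acid response and 6 of mTORC1 sensing. All genes called ran from 13606 to 16843 with a library left out and were 16214 with DESeq2. Member isoforms called stayed at 0 under each alternative run, and a DESeq2 fit was not run for them. Replicate numbers shared by the states are not shown to pair the libraries (correlation of deviations 0.0713). With the replicate number as a block, 19688 genes, 9 members and 0 member isoforms were called. SLC7A3 in naïve hESCs, at 33 and 20 counts, is the member whose level depth limits most.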
